A study of Homo sapiens with 12 samples.

Results

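The outermost 2 Mb of the human chromosomes were examined in ChIRP-seq peak lists for the long non-coding RNA SLEAR. ChIRP-seq (chromatin isolation by RNA purification) fishes crosslinked chromatin out of a cell lysate through the RNA bound to it, by means of biotin-labelled antisense oligonucleotides, and the recovered DNA is sequenced. All samples came from Jurkat, a cell line grown from a human T-cell leukaemia, that stably expressed SLEAR, so the control samples carried the same transgene and no line without it was compared. The odd and the even probe sets tile the RNA with no oligonucleotide in common, and the lacZ probes, directed at a bacterial RNA that human cells lack, served as control. There were 12 samples, 3 each for odd, even, lacZ and input, and the peak lists of the 9 odd, even and lacZ samples were analysed here. Nothing in the labels says that the replicates came from separate cultures or that the stable line was 1 clone or several, so p-values measure only the spread among these libraries, part or all of which may be technical. Peak positions hold no expression values, so neither the T-cell identity nor the SLEAR level could be checked from them.

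A peak belonged to a short-arm end if its summit lay at most 2 Mb from the first base of chromosomes 1 to 12 or 16 to 20, and to a long-arm end if its summit lay within 2 Mb of the last peak of chromosomes 1 to 22. The choice used position only. It gave 17 short-arm and 22 long-arm ends with 24780 of the 764268 peaks, or 3.24%, against 712435 peaks in the rest of the same chromosomes. After empty 100-kb bins were left out as assembly gaps, the ends covered 77.9 Mb, against 2618 Mb in the rest, or 2.89% of the length. Within the lists the ends held 2398, 3918 and 3857 odd peaks, 3089, 2804 and 3707 even peaks, and 1409, 2846 and 752 lacZ peaks. Read depth is unknown for every list, and lacZ replicate 3 had the fewest peaks of the 9.

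Chromosome ends carry telomere repeats, and next to them lie subtelomeres, patchworks of segments that are copied between chromosomes. Many subtelomeric and adjacent bands of human chromosomes are rich in genes and in G and C, and genes placed next to telomeres can be silenced in yeast and in human cells. Telomeres are also transcribed into the repeat-containing RNA TERRA, which stays with chromosome ends, and reads from such repeats or from segments copied between ends cannot always be placed on 1 chromosome. The first peak of any list on the short arms lay between base 286 and base 77442, so the lists reached close to the assembled ends.

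Peaks were denser in the ends than in the rest of the same chromosomes in all 9 lists, and the excess in odd lists lay above that in the other lists. Odd lists held 30.8, 50.3 and 49.5 peaks per Mb in the ends, against 23.7, 37.7 and 41.7 in the rest. Even lists held 39.7, 36.0 and 47.6 peaks per Mb in the ends, against 33.7, 32.3 and 44.4 in the rest. For lacZ probes the densities were 18.1, 36.5 and 9.65 peaks per Mb in the ends, against 16.8, 32.5 and 9.53 in the rest. The ratio of ends to rest was thus 1.3, 1.33 and 1.19 in odd lists, 1.18, 1.12 and 1.07 in even lists, and 1.08, 1.12 and 1.01 in lacZ lists. Over the 9 lists the mean log2 ratio was 0.20, or 1.15-fold (exact sign-flip permutation test over lists, two-sided, p = 0.00391, the smallest the 512 arrangements allow, and 0.0293 after Benjamini-Hochberg adjustment over 15 tests). For the 6 odd and even lists alone it was 0.26, or 1.19-fold (exact permutation p = 0.03125, the smallest possible, and 0.067 adjusted). Among the peaks at or above the median fold of their list the mean over the 9 lists fell to 0.08 (exact permutation p = 0.156).

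The SLEAR probe sets were set against lacZ to ask how much of the excess the control probes also gave. The log2 ratio averaged 0.35 ± 0.09 in odd lists, 0.16 ± 0.07 in even lists and 0.10 ± 0.08 in lacZ lists (SD, n = 3 each). All odd values lay above all even and all lacZ values, while even and lacZ values overlapped. The 6 odd and even lists exceeded the 3 lacZ lists by 0.16 on the log2 scale (exact permutation test over 84 choices, two-sided, p = 0.107, adjusted p = 0.124). Taken set by set, the difference was 0.25 for odd minus lacZ (exact permutation p = 0.1), 0.06 for even minus lacZ (exact permutation p = 0.5) and 0.18 for odd minus even (exact permutation p = 0.1), where 3 lists against 3 cannot go below 0.1. In lists cut to equal length the odd and even lists exceeded lacZ by 0.22 (exact permutation p = 0.0476, unadjusted).

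**Figure D1:**
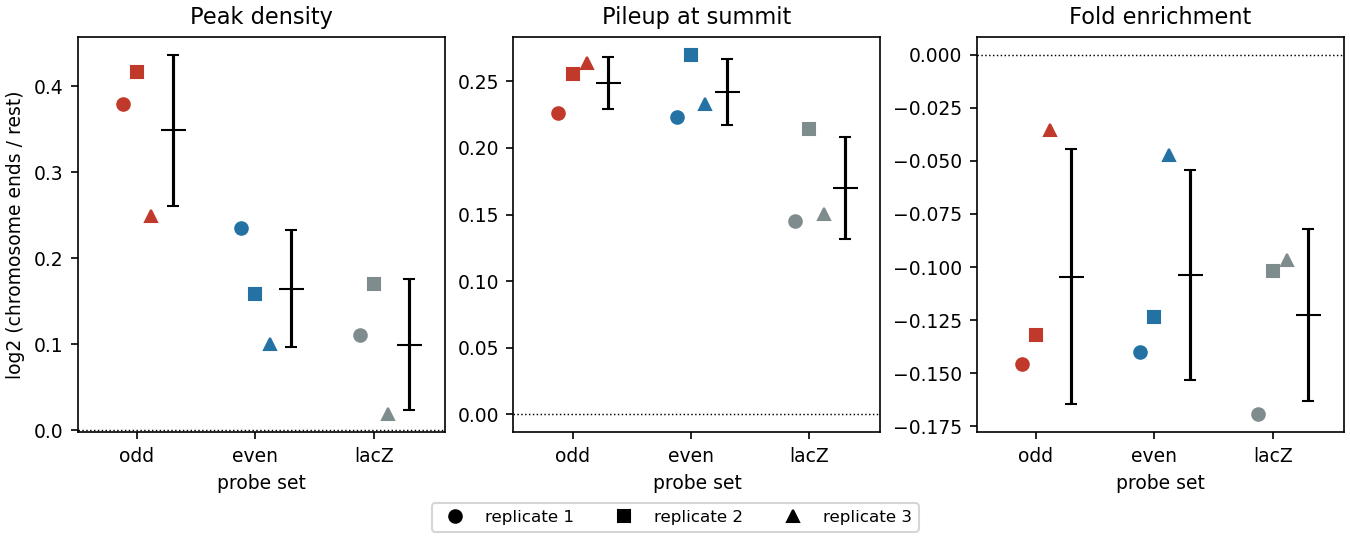
Log2 ratio of chromosome ends to the rest of the same chromosomes in each list (points, shaped by replicate), with the mean and SD of each probe set (black bars, n = 3). All 9 lists sat above 0 for peak density and for pileup and below 0 for fold enrichment, and the 3 odd lists had the highest ratios of density.

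Coverage at the summit, the pileup, was also higher in the ends, whereas the fold over background was lower. The median pileup of end peaks was 31, 40 and 24 in odd lists, 35, 39 and 24 in even lists and 26, 29 and 25 in lacZ lists, against 26, 32 and 20, then 30, 32 and 20, then 24, 25 and 22 in the rest of the same lists. The mean log2 pileup was higher in the ends by 0.22, or 1.16-fold, over the 9 lists (exact sign-flip permutation p = 0.00391, adjusted p = 0.0293). Odd and even lists had a larger pileup difference than lacZ lists, by 0.08 on the log2 scale or 1.05-fold (exact permutation p = 0.0119, the smallest possible, and 0.0595 adjusted), and in lists of equal length that difference was 0.01 (exact permutation p = 0.476). The fold enrichment, a value the authors gave for each peak, was lower in the ends in all 9 lists, by a log2 difference between -0.17 and -0.04. The background that pileup and fold imply together was higher in the ends in all 9 lists, by 0.25 to 0.39 on the log2 scale, and its part in the density result was not tested. Between 7.88% and 9.13% of end peaks were in the top 10% of their list by fold, and between 11.4% and 12.6% were in the top 10% by pileup.

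The excess did not rise toward the telomere and did not stop at 2 Mb. In the outermost 250 kb the density relative to the rest was 1.22 ± 0.07 in odd lists, 1.02 ± 0.03 in even lists and 0.98 ± 0.08 in lacZ lists (SD, n = 3 each). Odd density was highest between 750 and 1000 kb from the end, at 1.39 ± 0.08 times the rest. The 8 bins of 250 kb within the ends all lay above 1 for odd and for even probes, and 5 of 8 did for lacZ. Just inside the 2 Mb limit, between 1750 and 2000 kb, the ratio was 1.21 for odd, 1.2 for even and 0.99 for lacZ probes. Just outside it, between 2000 and 2250 kb, it was 1.24 for odd, 1.13 for even and 1.17 for lacZ probes. The neighbouring 2 to 4 Mb held 30.9, 50.7 and 49.8 peaks per Mb in odd lists, 39.8, 36.9 and 47.6 in even lists and 19.0, 37.7 and 10.6 in lacZ lists. No list was denser in the outer 2 Mb than in that neighbour, with log2 ratios from -0.13 to 0.00. Between 8 and 10 Mb from the end the density was still 1.11 times that of the rest in odd lists and 1.08 times in even and in lacZ lists.

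**Figure D2:**
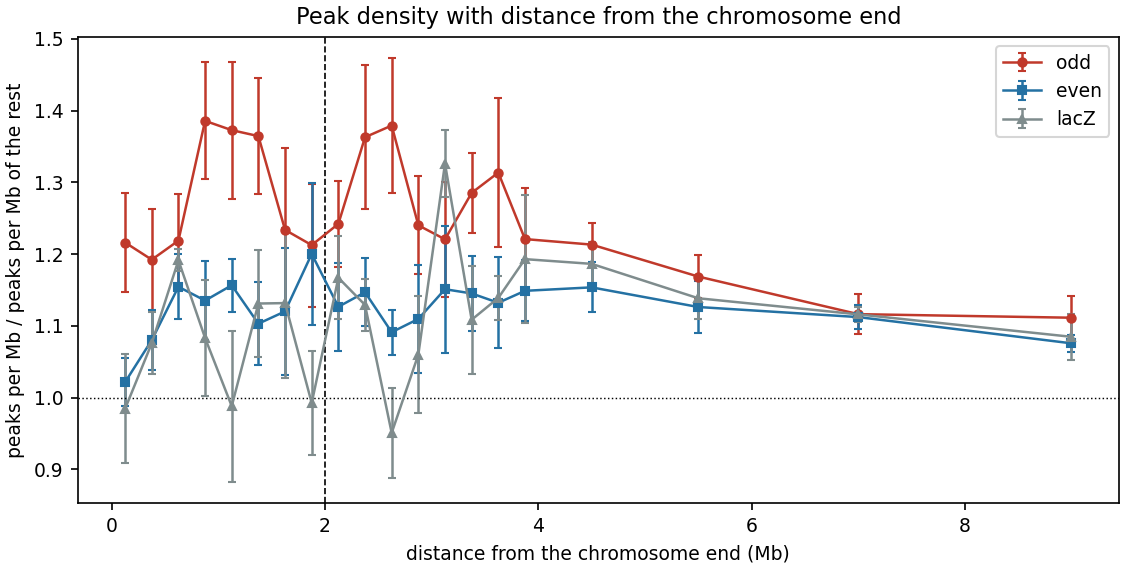
Peak density by distance from the chromosome end, as a ratio to the rest of the chromosomes, for the odd, even and lacZ sets (mean and SD of 3 lists each); the dashed line marks the 2 Mb limit. Odd density was highest at 1.39 between 750 and 1000 kb, and between 8 and 10 Mb the ratio was 1.11 for odd and 1.08 for even and for lacZ probes.

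Peaks reached the outermost 100 kb of most ends. Odd lists held 132, 186 and 183 peaks there, even lists 128, 125 and 164, and lacZ lists 60, 138 and 40. Such a peak was present at 37, 37 and 38 of the 39 ends in odd lists, at 36, 34 and 37 in even lists, and at 29, 36 and 23 in lacZ lists. The lowest of these numbers were those of lacZ replicate 3, the shortest list. Long-arm ends were measured from the last peak of any list. At each of the 22 long-arm ends at least 1 list therefore had a peak in the outermost 100 kb by definition.

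Short-arm and long-arm ends differed little. On the 17 chromosomes with both, the density of short-arm over long-arm ends was 0.02, 0.03 and 0.02 on the log2 scale in odd lists, -0.08, -0.11 and -0.08 in even lists and -0.03, -0.04 and -0.10 in lacZ lists. The mean over the 9 lists was -0.04 (exact sign-flip permutation p = 0.0625, adjusted p = 0.117). Odd lists were all slightly above 0 and even and lacZ lists all below, a split for which no test was run. With ends of 5 Mb the mean was -0.08 (exact permutation p = 0.00391, unadjusted). With empty bins kept in the lengths it was -0.02 (exact permutation p = 0.352, unadjusted).

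The ends were far from uniform. Each was compared with the rest of its own chromosome, and the mean log2 ratio over the 9 lists was above 0 at 30 of the 39 ends. It was above 0 in every list at 15 ends and below 0 in every list at 1, the short-arm end of chromosome 3 (3p). Set means were above 0 at 34 ends for odd, 29 for even and 25 for lacZ probes. The 3 ends with the highest mean were 4p at 0.61, or 1.52-fold, 5p at 0.57 and 8p at 0.46, and the 3 with the lowest were 3p at -0.37, 1q at -0.16 and 12p at -0.05. With 5 Mb ends the mean at 8p was 0.14, and with the stronger peaks alone it was 0.24. Across the 39 ends the set means correlated with Pearson's r of 0.66 between odd and even, 0.44 between odd and lacZ and 0.37 between even and lacZ, where all sets share the same genome, with its base composition and mappability.

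To compare the same end between lists of different length, peaks were expressed per 10000 peaks of the list. The 4p end (chr4:1-2000000) held 11.5, 11.99 and 10.01 per 10000 odd peaks, 8.33, 7.22 and 7.92 per 10000 even peaks and 6.41, 7.74 and 5.45 per 10000 lacZ peaks. Odd values there lay above all others, and even and lacZ values overlapped. The 5p end (chr5:1-2000000) held 12.9, 10.8 and 9.47 per 10000 odd peaks, 10.6, 10.3 and 9.67 per 10000 even peaks and 8.84, 9.67 and 8.17 per 10000 lacZ peaks. Odd values overlapped those of both other sets at 5p, and the lowest even value lay just above the highest lacZ value. The 8p end (chr8:1-2000000) held 9.95, 9.75 and 9.56 per 10000 odd peaks, 9.53, 9.62 and 8.67 per 10000 even peaks and 12.4, 11.1 and 11.3 per 10000 lacZ peaks. At 8p every lacZ list lay above every odd and even list. At the sparse 3p end (chr3:1-2000000) the rates were 5.59, 5.95 and 6.46 for odd, 6.14, 5.5 and 5.75 for even and 5.30, 5.80 and 4.67 for lacZ, and the sets overlapped.

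**Figure D3:**
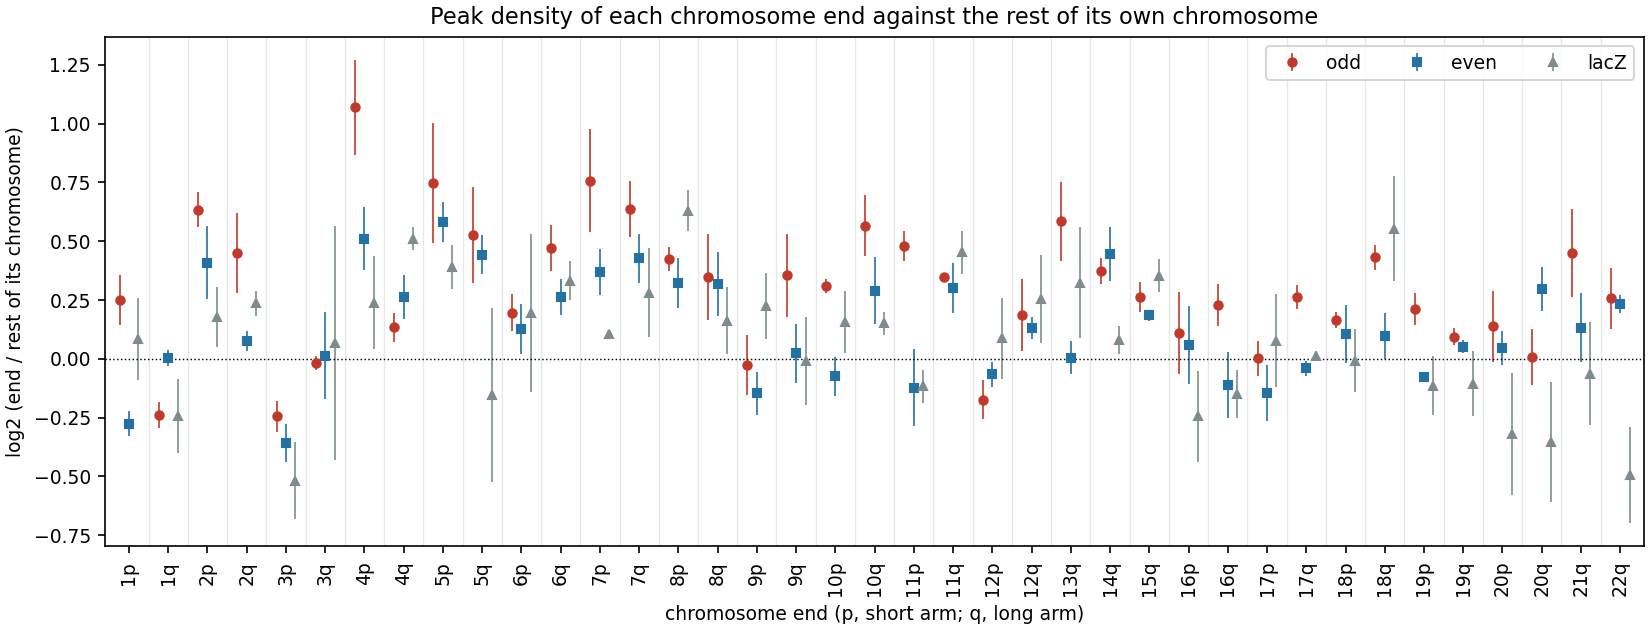
Log2 ratio of peak density in each of the 39 chromosome ends to the rest of its own chromosome, as mean and SD of 3 lists for each probe set. The 4p, 5p and 8p ends had the highest means over the 9 lists and 3p the lowest, and at 22q lacZ lay below odd and even.

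Every 2-Mb window of chromosomes 1 to 22 was then tested for a difference between probe sets, and only the windows of the ends are given. Of the 39 ends, 18 were higher and 5 were lower in odd and even lists than in lacZ lists (limma, Benjamini-Hochberg over 1352 windows, adjusted p under 0.05). Among all windows 20.6% were higher and 20.5% were lower, against 46.2% and 12.8% of the ends. The median log2 difference was 0.20 in the ends and -0.01 over all windows. Without replicate 1 of each set the number of ends called fell to 7, all of them higher. Of all 1352 windows 126 were then higher and 125 lower.

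The long-arm end of chromosome 22 (22q, chr22:49233371-51233371) had the largest difference. It held 11.8, 11.1 and 9.03 per 10000 odd peaks, 11.3, 10.4 and 9.42 per 10000 even peaks, and 5.30, 6.71 and 4.67 per 10000 lacZ peaks. In peaks these were 76, 114 and 102 odd, 103, 91 and 113 even, and 24, 59 and 12 lacZ peaks. The odd and even lists did not overlap the lacZ lists, at a log2 difference of 0.87 (SE 0.10, limma adjusted p = 4.9e-06). Next came 5q (chr5:178896151-180896151), with 10.3, 9.85 and 8.23 per 10000 odd peaks, 9.31, 9.74 and 8.75 per 10000 even peaks and 5.74, 8.19 and 4.67 per 10000 lacZ peaks. Its log2 difference was 0.59 (SE 0.11, limma adjusted p = 0.00056), and lacZ replicate 2 lay just under the lowest odd list. Without replicate 1 the 5q difference was 0.52 and was not called (limma adjusted p = 0.0609). At 20q (chr20:60958569-62958569) the rates were 9.48, 10.7 and 9.03 for odd, 12.5, 11.9 and 10.3 for even and 7.29, 8.30 and 5.84 for lacZ, with no overlap and a log2 difference of 0.55 (SE 0.09, limma adjusted p = 0.00018).

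Other ends named as higher in odd and even lists were 4p at 0.50, 20p at 0.46, 7p at 0.40, 16p at 0.39, 11p at 0.37, 21q at 0.36 and 14q at 0.34 on the log2 scale, with limma adjusted p between 0.00034 and 0.0042. Both arms of chromosome 20 were among them. The 5 ends lower in odd and even lists were 4q at -0.32, 12p at -0.30, 18q at -0.27, 8p at -0.27 and 9p at -0.20. At 4q (chr4:189041368-191041368) the rates were 5.28, 5.85 and 6.29 for odd, 5.92, 6.99 and 6.84 for even and 7.73, 8.42 and 7.39 for lacZ, with every lacZ list above the other 6. The ends of chromosome 4 therefore lay on opposite sides of lacZ, 4p above and 4q below. With 5 Mb windows the difference was -0.04 at 7p, 0.15 at 16p and 0.09 at 14q, and none of the 3 was called (limma adjusted p = 0.686, 0.0823 and 0.338). The call was also lost at 4p with 1 Mb windows (limma adjusted p = 0.0633), at 11p with the stronger peaks alone (limma adjusted p = 0.103), and at 16p and 21q without replicate 1 (limma adjusted p = 0.157 and 0.117).

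Odd and even probes, which are aimed at the same RNA, also differed at the ends. Odd lists were higher at 13 ends and lower at 0 (limma, adjusted p under 0.05), where 18 ends had an unadjusted p under 0.05. Of all windows 9.17% were higher and 10.4% were lower in odd lists. The log2 difference was above 0 at 33 of the 39 ends, with a median of 0.12, against -0.01 over all windows. Without replicate 1 the count fell to 1, and without replicate 2 it also fell to 1, the 11p end in both cases. Of all 1352 windows only 3 were then higher and 2 lower without replicate 1, and 21 and 19 without replicate 2. In lists cut to equal length 23 ends were called, 18 higher and 5 lower. Calls also rose over all 1304 windows of that setting, to 349 higher and 364 lower.

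The largest odd excess was at 11p (chr11:1-2000000), with 10.6, 11.2 and 10.4 per 10000 odd peaks, against 8.11, 6.65 and 6.75 per 10000 even peaks, while lacZ lists held 6.85, 6.48 and 6.61. Even and lacZ values overlapped there and odd stood apart, at a log2 difference from even of 0.55 (SE 0.09, limma adjusted p = 0.00054). At 13q (chr13:113109531-115109531) the rates were 11.2, 11.3 and 9.39 for odd, 7.45, 7.1 and 7.0 for even and 10.8, 10.8 and 8.17 for lacZ. Here odd and lacZ overlapped and even was the low set, at 0.53 for odd minus even (SE 0.10, limma adjusted p = 0.0017). The 1p end (chr1:1-2000000) was like 13q, with rates of 9.48, 9.65 and 8.41 for odd, 6.24, 6.42 and 6.67 for even and 8.84, 7.17 and 7.39 for lacZ, and a log2 difference of 0.48 (SE 0.09, limma adjusted p = 0.0017). The other named ends were 4p at 0.49, 16q at 0.40, 10p at 0.38, 2q and 21q at 0.37, 7p at 0.35 and 19p at 0.34. In lists of equal length the differences at 4p, 16q, 2q and 7p were -0.08, 0.02, -0.01 and -0.02, and none of the 4 was called.

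**Figure D4:**
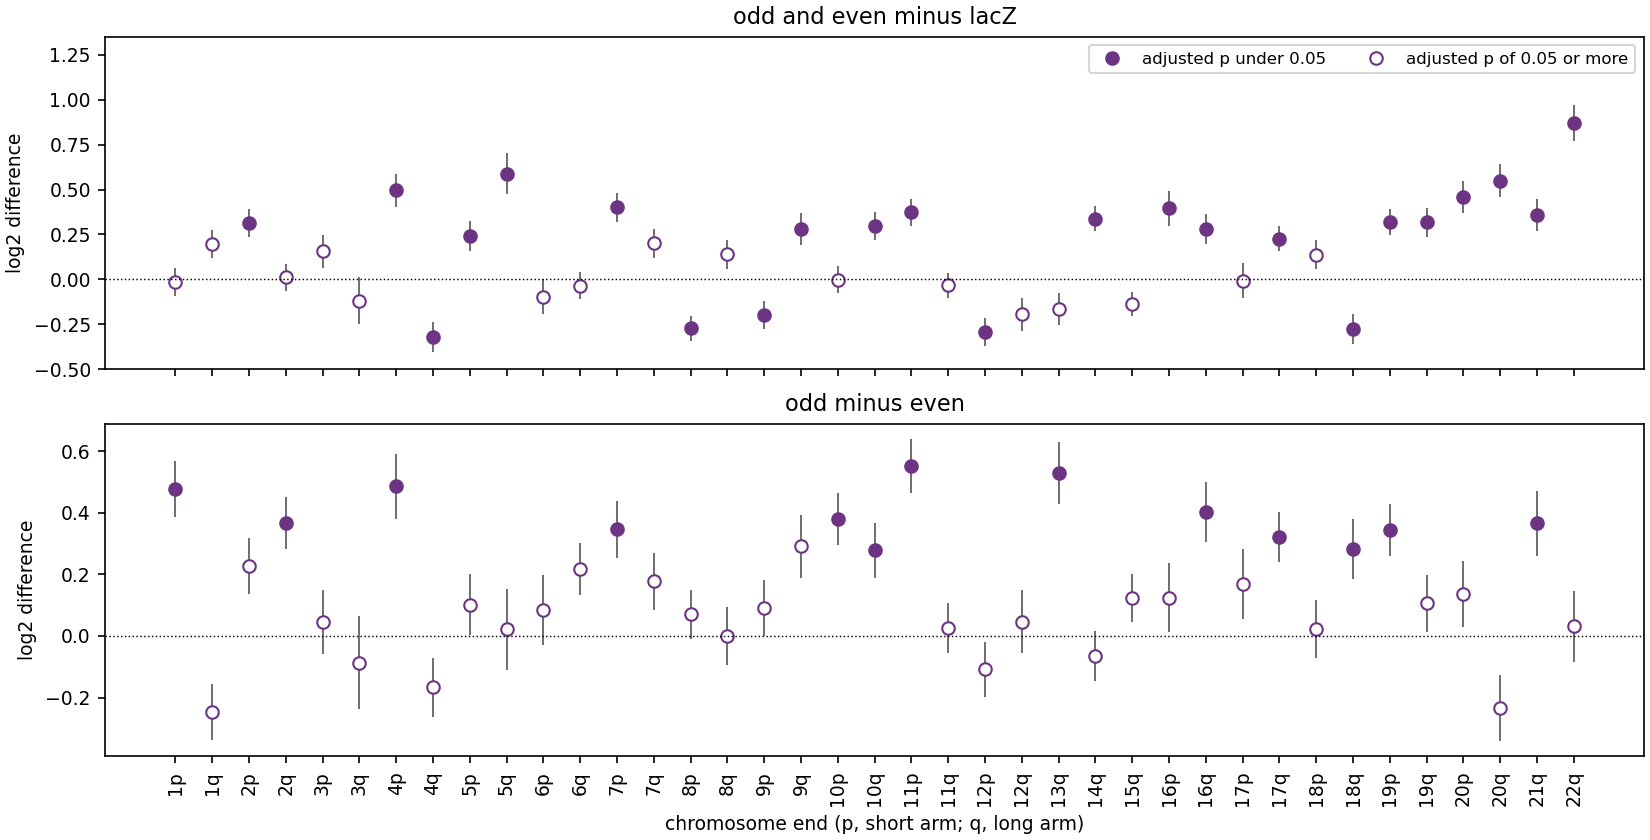
Log2 difference in peaks per 10000 at each of the 39 ends for odd and even minus lacZ (upper panel) and odd minus even (lower panel), with the standard error from limma; filled points had an adjusted p under 0.05. The 22q end stood highest against lacZ at 0.87, and no end was called lower in odd than in even lists.

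Peaks shared by probe sets with no oligonucleotide in common were scarce in the ends, as in the rest. An odd peak counted as shared if it overlapped by at least 1 base a peak in at least 2 of the 3 even lists, and the other way round. Shared peaks made up 4.63%, 4.80% and 4.61% of odd end peaks, against 4.53%, 4.43% and 4.12% of odd peaks in the rest. Of even end peaks 4.89%, 5.06% and 4.99% were shared with odd, against 4.26%, 4.32% and 3.90% of even peaks in the rest. The share was higher in the ends in 6 of 6 lists, by 0.57 percentage points on average (exact sign-flip permutation p = 0.03125, the smallest possible, and 0.067 adjusted). The test took the 6 lists as independent, but the same overlaps were counted from the odd and from the even side. The 3 lists of a set also shared their partner lists. In lists of equal length, where the density of peaks no longer differs between lists as a whole, the difference was -0.12 points (exact permutation p = 0.344). At full length the partner lists also covered more of the ends. Odd peaks covered 1.996% of the bases in the ends on average, against 1.477% in the rest. Even peaks covered 1.870%, against 1.653%. Whether sharing in the ends exceeded what this coverage alone would give was not tested.

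Sharing with the control probes was higher in the ends as well. Odd end peaks overlapped at least 2 of the 3 lacZ lists in 2.29%, 1.76% and 1.94% of cases, against 1.77%, 1.66% and 1.68% in the rest. For even end peaks the shares were 1.94%, 1.78% and 2.08%, against 1.75%, 1.70% and 1.72% in the rest. The mean difference was 0.25 points (exact sign-flip permutation p = 0.03125, adjusted p = 0.067). It was 0.05 without lacZ replicate 1 and 0.02 without lacZ replicate 2, when both remaining lacZ lists had to hold the peak. All odd and even lists were set against the same 3 lacZ lists, so their values were not independent. Seen from the control, 4.61%, 4.36% and 4.79% of lacZ end peaks overlapped odd peaks, against 3.33%, 3.20% and 3.27% in the rest. The lacZ peaks, too, covered more of the ends, at 0.988% of the bases on average, against 0.881% in the rest. Sharing relative to coverage was not tested here either.

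The Jaccard index, the percent of bases in either list that lie in both, was likewise low between probe sets. Between odd and even lists it averaged 1.45% in the ends, against 1.34% in the rest, and was higher in the ends in 7 of 9 pairs. Between odd and lacZ lists it averaged 0.84% in the ends, against 0.60% in the rest, and between even and lacZ lists 0.78%, against 0.64%, higher in 9 of 9 pairs each. Lists of the same set overlapped far more, at 58.5% for odd, 61.1% for even and 40.3% for lacZ lists in the ends, against 55.3%, 59.6% and 42.2% in the rest.

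**Figure D5:**
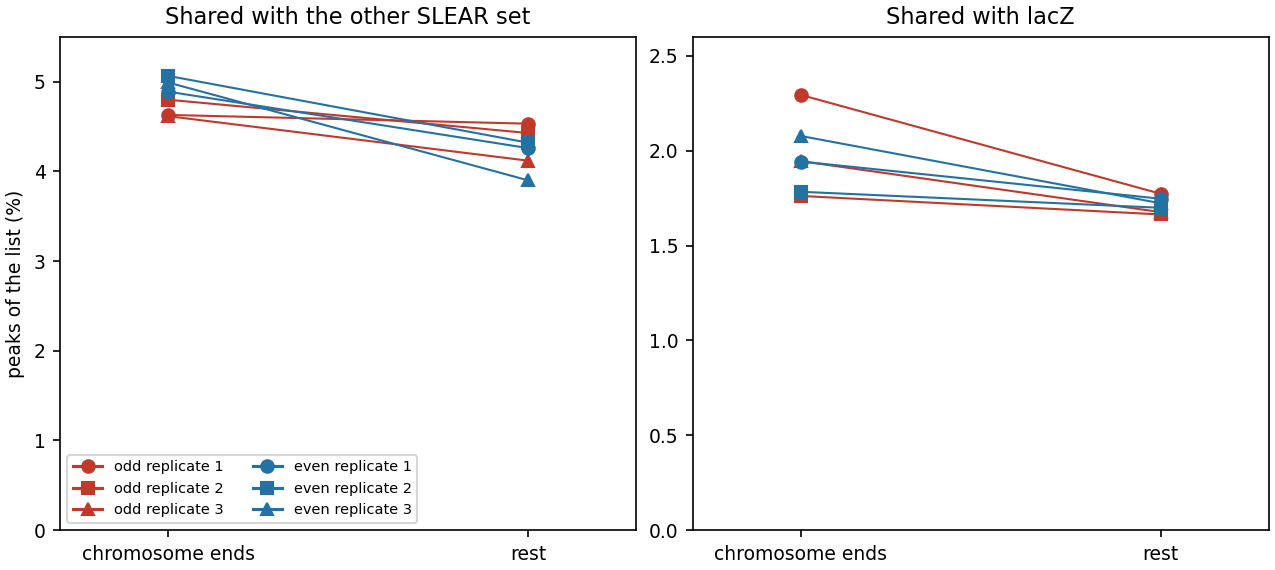
Percent of the peaks of each odd and even list that overlapped at least 2 of the 3 lists of the other SLEAR probe set (left) or of lacZ (right), in the chromosome ends and in the rest of the same chromosomes. Each line is 1 list; all 6 lines were higher in the ends in both panels, between 4.61% and 5.06% on the left and 1.76% and 2.29% on the right.

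Overlapping peaks of all 9 lists were merged into 11324 regions in the ends. A candidate region, with a peak in at least 5 of the 6 odd and even lists and in none of the 3 lacZ lists, was found 158 times in the ends, or in 1.40% of their regions. Over all of chromosomes 1 to 22 the share was 1.14%, and in the rest it was also 1.14%, or 3797 regions. Per 10 Mb that was 20.3 candidates in the ends, against 14.5 in the rest, a ratio of 1.40, where all merged regions had a ratio of 1.14. A peak in all 6 odd and even lists and no lacZ list was found in 82 end regions, or 0.724%, against 0.660% in the rest. With the stronger peaks alone, candidates made up 0.773% of end regions, against 0.750% in the rest. In lists of equal length they made up 0.460%, against 0.481%. The higher share in the ends thus shrank with the stronger peaks and was absent in lists of equal length. Candidates per Mb had ratios of ends to rest of 1.13 and 1.14 under these settings. Regions with a peak in at least 5 of 6 odd and even lists that also had a lacZ peak numbered 14 in the ends, or 0.124% of the regions there, against 228 or 0.0682% in the rest, which per Mb was 2.06 times as many in the ends.

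Regions of a single probe set were far more frequent. Regions found by all 3 odd replicates but by no even replicate numbered 1966 in the ends, 17.4% of the regions there, against 15.1% in the rest, with or without a lacZ peak. Those found by all 3 even replicates but by no odd replicate numbered 2017, 17.8% there and 18.0% in the rest. Those found by all 3 lacZ replicates and by at most 1 odd or even replicate numbered 626, 5.53% there and 6.18% in the rest. Per Mb the odd-only regions were 1.31 times, the even-only regions 1.12 times and the lacZ-only regions 1.02 times as frequent in the ends as in the rest.

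Candidate regions were spread over 38 of the 39 ends, with 10 at 5p, 9 at 21q and 8 at 11q, and none at 16q. Only 7 lay within 100 kb and 41 within 500 kb of the end. Most were not strong in both probe sets. The percentile of fold within the list was averaged over each region's odd peaks and over its even peaks. This mean stood above 50 in both sets in 40 of the 158, or 25.3%, against 32.4% of candidates in the rest. In 55 it did so in odd lists alone, in 38 in even lists alone, and in 25 in neither. The odd and even summits lay within 100 bases of each other in 47 of 158 end candidates, or 29.7%, against 32.1% in the rest, at a median distance of 254.5 bases, against 207.

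By fold the strongest odd peak of chromosomes 1 to 22 lay in an end. At chr6:1926920-1928018, in the 6p end, the pileup was 1407, 2653 and 1767 and the fold 655, 1149 and 1036 in the odd lists and it ranked first by fold in all 3. The fold is on each list's own scale, so values of different lists are given side by side and not compared. The same region had even peaks with pileups of only 12, 21 and 15 and folds of 5.66, 8.57 and 9.46, which ranked 77672, 54473 and 65541 in their lists, and it had no lacZ peak. It therefore met the rule for a candidate although its even peaks stood in the weaker part of their lists. It was not among the regions named by the rule for the text and was picked out after the values were seen, as the strongest end peak of each list.

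The strongest even end peaks by fold had no odd counterpart. At chr4:66675-67621, in the outermost 100 kb of 4p, the even pileup was 1514, 2205 and 1094 and the fold 410, 341 and 225, with ranks of 2, 13 and 31, and no odd or lacZ list had a peak. At chr7:1900700-1901967, in 7p, the even fold was 282, 356 and 209, again with no odd or lacZ peak. By fold the strongest lacZ end peak was the same in all 3 lacZ lists, at chr11:134173427-134174322 in 11q, with folds of 149, 381 and 98.9. Even replicates 1 and 2 had a peak there with folds of 6.60 and 6.63. These regions, too, were chosen after their values were seen. So were the strongest odd-only regions, at chr11:133934746-133935641 in 11q with folds of 135, 306 and 181, at chr8:992297-993717 in 8p with folds of 142, 286 and 125, and at chr10:135174294-135175396 in 10q with folds of 109, 205 and 181.

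The 10 candidate regions named by rule had the highest mean percentile of fold, between 81.1 and 95.8, and all had a peak in all 6 odd and even lists. They lay in 10 different ends on 9 chromosomes. The highest was at chr3:197304728-197305979 in 3q, 655 kb from the last peak of the chromosome. Its pileup was 306, 754 and 318 in odd lists and 207, 318 and 195 in even lists, and its fold was 84.02, 164 and 68.9 in odd lists and 53.2, 57.4 and 43.0 in even lists. The odd and even summits there were 79 bases apart, the only pair within 100 bases among the 10.

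At chr5:999137-1000169 in 5p the fold was 36.5, 79.1 and 36.3 in odd lists and 23.8, 22.3 and 24.8 in even lists, and the summits lay 234 bases from each other. At chr15:101049342-101050665 in 15q it was 21.6, 42.2 and 31.6 in odd lists and 36.0, 47.1 and 53.8 in even lists, and the summits lay 451 bases from each other. At chr19:58443526-58444675 in 19q it was 21.1, 26.8 and 27.2 in odd lists and 24.8, 29.0 and 24.5 in even lists, and the summits lay 370 bases from each other.

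The other named candidates were as follows. At chr16:303336-304749 in 16p the fold was 85.1, 232 and 134 in odd lists and 19.0, 23.8 and 11.2 in even lists, and the summits lay 671 bases from each other. At chr21:46360921-46362325 in 21q it was 12.3, 25.3 and 19.1 in odd lists and 82.3, 187 and 146 in even lists, with summits 415 bases from each other. The others were chr4:1950324-1951560 in 4p, chr3:234795-235537 in 3p, chr6:1122870-1124145 in 6p and chr2:434430-435482 in 2p, with mean odd folds between 36.6 and 55.9 and mean even folds between 18.8 and 22.3. Summits were more than 500 bases apart in 4 of the 10.

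The control probes had strong regions of their own, high in the lacZ lists and without a peak of the SLEAR probes. The lacZ-only region at chr12:132449810-132450745 in 12q had folds of 111, 343 and 88.5, that at chr18:77929146-77930099 in 18q had 111, 273 and 65.8, and that at chr20:1079674-1080948 in 20p had 110, 269 and 62.7. No odd or even list had a peak in any of the 3.

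A peak in all 9 lists occurred in 2 end regions, or 0.0177%, against 47 regions or 0.0141% in the rest. At chr3:197340211-197341561 in 3q, on the telomere side of the highest candidate, the fold was 17.1, 26.3 and 28.8 in odd lists, 11.5, 18.3 and 31.6 in even lists and 37.2, 123 and 55.8 in lacZ lists. At chr20:290505-291282 in 20p the folds were 13.2, 6.93 and 6.73 in odd lists, 18.4, 4.33 and 6.26 in even lists and 19.3, 32.7 and 7.44 in lacZ lists. The region at chr4:1265563-1269424 in 4p had a peak in 8 lists, with folds of 79.4, 102 and 168 in odd lists, 4.65 and 9.35 in even replicates 2 and 3, and 46.9, 131 and 29.9 in lacZ lists.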

How the data were processed

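Per the submitters' processing notes, FastQC was run on the reads and Bowtie2 aligned them to hg19; versions, the peak caller and the library behind its background are not stated there or in the labels. Peaks were called in each sample separately, and the deposited lists count positions from 1. The pileup is a signal, the fragment coverage at the summit, deposited by the authors as whole numbers not scaled to depth. The deposited −log10 of the p-value and of the q-value give the peak's significance, of which the first ranked peaks in lists cut to equal length. The fold enrichment is the authors' ratio of pileup to background, per the file headers, and only ranks or describes peaks within a list. Read depth is unknown, so no sampling interval was computed.

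Chromosomes 1 to 22 were used. The 100-kb bins without a peak in any list (1006) were left out of lengths. Lists, not peaks, were the units of exact permutation tests, with Benjamini-Hochberg adjustment over 15. Windows of 2 Mb with a mean of at least 10 peaks per list were fitted in limma 3.58.1 (R 4.3.3, empirical Bayes with trend) on log2 (peaks per 10000 + 0.5), as tested on simulated data. Other values came from Python 3.11.15 with numpy 2.4.6 and pandas 2.3.3. Named were the 3 highest and lowest ends, up to 10 called ends per comparison, and regions by mean percentile of fold within their lists (10 candidates, 3 present in all lacZ lists and at most 1 other, 3 in the most lists). Ends, rules and regions were chosen with earlier results of these data known. Alternatives were ends of 1 or 5 Mb, stronger peaks, lists of equal length, other gap, weight, average, overlap, presence, pseudocount and filter settings, a replicate block and leaving out replicates. Leaving out single lacZ lists was added after seeing the data. No hg19 genome was used, so regions are given without genes or sequence.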

Additional observations from a re-analysis of the deposited data

Results flagged for a closer look

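The excess of pileup in the ends differed between probe sets before adjustment for the number of tests, and the adjusted p missed 0.05. The mean log2 difference of ends minus rest was 0.0755 larger in the 6 odd and even lists than in the 3 lacZ lists (exact permutation test over 84 choices, two-sided, p = 0.0119, the smallest possible, and 0.0595 after adjustment over 15 tests). Every odd and even list lay above every lacZ list. With 5 Mb ends, stronger peaks or lists of equal length the permutation p was 0.345, 0.155 and 0.476.

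Short-arm ends were denser than long-arm ends in all 3 odd lists and less dense in all even and lacZ lists, so that the mean log2 ratio differed by 0.114 for odd minus even and by 0.0814 for odd minus lacZ. This difference was not tested.

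At 9 of the 39 ends all 3 lists of a probe set were denser than the rest of their chromosome while all 3 of another set were less dense, which was met by 12 of the 117 comparisons of sets at an end. Odd lists were above and even lists below at 1p, 10p, 16q, 17q and 19p, where the log2 ratio differed by 0.526, 0.385, 0.341, 0.305 and 0.291 for odd minus even. Odd lists were above and lacZ lists below at 11p, 16q and 22q, with differences of 0.596, 0.380 and 0.752 for odd minus lacZ. Even lists were above and lacZ lists below at 20q and 22q, by 0.652 and 0.727 for even minus lacZ. The reverse held at 9p and 10p, with -0.370 and -0.230 for even minus lacZ. These ratios to the own chromosome were not tested. They were compared at the ends only, so no share over other windows stands beside them. Of all windows, limma called 20.6% higher and 20.5% lower in odd and even lists than in lacZ lists. For odd against even lists it called 9.17% higher and 10.4% lower. On the scale of peaks per 10000, limma called 1p, 10p, 16q, 17q and 19p higher in odd than in even lists, and 11p, 16q, 20q and 22q higher and 9p lower in odd and even lists together than in lacZ lists.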

How the results depend on the processing

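The higher density of the ends passed under every alternative but the peaks at or above the median fold, where it was 0.0793 (exact permutation p = 0.156), and their higher pileup passed under all. Density in odd and even against lacZ lists was past 0.05 with those stronger peaks at 0.23 and with lists of equal length at 0.22 (exact permutation p = 0.0476 each). The pileup difference between odd and even and lacZ lists was 0.0248 with 5 Mb ends, 0.0435 with stronger peaks and 0.0109 with equal length. It was 0.0632 to 0.0975 with a replicate number or a lacZ list left out, where in the first case p cannot go below 0.0667. Sharing of odd with even peaks turned to -0.19 points with stronger peaks and -0.12 with equal length, and was 0.13 to 0.58 without a replicate. Sharing with lacZ was -0.21 with stronger peaks, 0.0405 with equal length, 0.0653 when at least 50% of the peak had to be covered, and 0.0237 to 0.209 with a replicate number or a lacZ list left out. When a replicate number was left out, a shared peak had to be in both remaining partner lists. Short-arm over long-arm density was -0.076 with 1 Mb and -0.0777 with 5 Mb ends, -0.10 with stronger peaks and -0.12 with equal length, all past 0.05. It was -0.0177 with empty bins kept in the lengths (exact permutation p = 0.352). With a replicate number or a lacZ list left out it was -0.0469 to -0.0339 (exact permutation p between 0.094 and 0.188). Candidate regions numbered 83 and 379 with 1 and 5 Mb ends, 41 with stronger peaks, 15 with equal length, 82 when all 6 lists and 266 when at least 4 had to hold them, and 158 to 260 with lists left out, where 3 of 4 lists sufficed without a replicate number. Ends called for odd against even lists numbered 23 with equal length and 1 to 18 with lists left out, and ends called for odd and even against lacZ 7 to 26. Over all windows the odd against even calls were 349 higher and 364 lower of 1304 with equal length. They were 3 and 2 of 1352 without replicate 1 and 212 and 236 without lacZ replicate 3. Against lacZ the calls over all windows were 126 and 125 without replicate 1 and 308 and 300 without lacZ replicate 2. Among single ends, density turned to 0.13 and 0.28 at 12p with 1 and 5 Mb ends and to 0.14 at 1q with 5 Mb ends. It moved to 0.136 at 8p and -0.209 at 3p with 5 Mb ends, to 0.239 at 8p with stronger peaks and to -0.504 at 1q with 1 Mb ends. The difference from lacZ at 7p turned to -0.0374 with 5 Mb ends. Odd minus even turned to -0.0794, -0.0068 and -0.0173 at 4p, 2q and 7p with equal length. The cause was not tested.

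Same-numbered lists of different sets correlated between -0.03 and 0.42 over windows, with a mean of 0.10. Lists of different number correlated between -0.41 and 0.30, with a mean of -0.05. Over the lists of any partner set these values nearly cancelled, so they do not show how alike the sets were. The set means over the 39 ends correlated with Pearson's r of 0.66 between odd and even. Of the 9 lists 5 correlated best with their own number. Whether the numbers pair the samples was not tested, so values with a replicate block are given as an alternative. With the replicate block the density difference between odd and even and lacZ lists had a permutation p of 0.111 and the pileup difference 0.037 (27 arrangements, which allow no less), and the ends called numbered 24 against lacZ and 14 for odd against even. Unknown depth limits every comparison of peak numbers between lists.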
